A study of Mus musculus with 7 samples.

Results

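The 40 genes described here build the lysosome and its acidifying pump. They comprise 8 luminal proteases, 10 glycosidases and sulfatases, 7 lipid enzymes and soluble cofactors, 8 membrane proteins, 5 subunits of the proton pump (V-ATPase) and the transcription factors Tfeb and Tfe3. Their probes were found by gene symbol in the array annotation, and 89 of the 45128 probes belong to them. A probe counted as detected when it exceeded the upper 0.05 tail of an array's background, and probes detected on at least 3 arrays were tested. By this filter 39 of the 40 genes were measured, among 11085 genes in all, and Tfeb was not.

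The arrays held RNA from NPK prostate tumours of mice, grown as allografts in athymic nude hosts of strain NU/J. Hosts had been given vehicle (3 tumours) or RAPPD (4 tumours) on 5 consecutive days, and the tumours were taken on day 5. In the published work on this model NPK tumours arise from alleles recombined by a Cre expressed from the Nkx3.1 locus of luminal prostate cells, and RAPPD stands for rapamycin plus a MEK inhibitor. Age of the hosts and the number of donor tumours are not given in the sources used here, and no source says that the 7 tumours were independent grafts, so the p-values rest on a spread that may be partly technical. Nude hosts lack a functional thymus but keep myeloid cells, vessels and fibroblasts, so host RNA is part of every sample.

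Lysosomes break down proteins, glycans and lipids with hydrolases that work at acid pH, which the V-ATPase maintains by pumping protons across the limiting membrane. Many of these genes carry a CLEAR element, a binding site for TFEB, TFE3 and their relative MITF, in the promoter. When the kinase complex mTORC1 is active at the lysosome it phosphorylates TFEB and keeps it in the cytoplasm, and when mTORC1 is inhibited TFEB can enter the nucleus. The comparison of RAPPD with vehicle tumours asks how far the transcripts of this organelle differed after the short treatment.

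Promoter sequences are shown because the core of this element was found in a larger share of the members than of all genes. RefSeq windows of assembly GRCm38.p6, from 250 bases before to 50 bases after each annotated start, were at hand for 34 of the 40 genes. The core letters TCACGTGA, which read the same on both strands, were found in 7 of these 34 genes (20.6%), against 304 of 27025 genes (1.12%). The shorter E-box CACGTG, which lies inside the core and is also its own reverse complement, was found in 15 of 34 (44.1%) against 8.09% of all genes. Among 53 other lysosomal genes with a window, 7 held the core (13.2%). Genes with several annotated starts count as holding the letters if any window does, and a match is a run of letters, not a shown binding site. The stretches around the core are given 5′ to 3′ on the gene's strand with TCACGTGA in capitals.
Ctsa, chr2:164833523-164833802, plus strand, 280 bases with the core at -13 and at 5 from the annotated start: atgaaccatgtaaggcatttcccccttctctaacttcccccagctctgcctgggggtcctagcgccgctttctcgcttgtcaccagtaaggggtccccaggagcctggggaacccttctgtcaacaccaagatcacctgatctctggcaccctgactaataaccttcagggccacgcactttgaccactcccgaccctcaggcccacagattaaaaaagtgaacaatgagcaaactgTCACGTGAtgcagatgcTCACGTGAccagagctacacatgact
Ctsd, chr7:142387893-142387952, minus strand, core at -99: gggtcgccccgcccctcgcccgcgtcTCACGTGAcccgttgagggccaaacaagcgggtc
Gla, chrX:134601167-134601255, minus strand, cores at -228 and -195: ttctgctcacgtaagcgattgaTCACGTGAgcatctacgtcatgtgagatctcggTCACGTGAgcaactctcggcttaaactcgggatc
Mcoln1, chr8:3500447-3500506, plus strand, core at -46: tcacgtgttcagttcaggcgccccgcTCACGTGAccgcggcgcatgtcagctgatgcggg
Cln3, chr7:126583325-126583384, minus strand, core at -122: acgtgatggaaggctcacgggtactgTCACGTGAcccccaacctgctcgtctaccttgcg
Atp6v1a, chr16:44139358-44139417, minus strand, core at -132: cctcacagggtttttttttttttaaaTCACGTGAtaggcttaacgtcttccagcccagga
Atp6v0d1, chr8:105566035-105566094, minus strand, core at -4: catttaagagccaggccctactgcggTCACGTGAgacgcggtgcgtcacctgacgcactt
The promoter of Lamp1, the abundant glycoprotein of the lysosomal membrane, held 4 copies of CACGTG and none of the longer core. They are shown in capitals.
Lamp1, chr8:13159074-13159177, plus strand, copies from -61 to -15: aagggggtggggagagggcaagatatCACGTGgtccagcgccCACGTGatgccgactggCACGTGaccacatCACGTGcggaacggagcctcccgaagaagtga

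Arrays differed little in the share of probes detected, at 45.0% to 47.3%. All values below are log2 intensities after background correction and quantile normalisation and differences are RAPPD minus vehicle, with a precision set by how few arrays there are. Levels of different probes are not on a common scale, so no gene's level is set against another's. By the array positions in the sample titles, vehicle 1 and vehicle 2 were each alone among these samples on a chip, while vehicle 3 shared its chip with all 4 RAPPD tumours. The skeletal muscle markers averaged 12.32 in vehicle 2 against 4.79 to 5.80 in the other 6 arrays. Of the luminal epithelial markers, Krt8 and Krt18 were detected on all arrays, and 5 of the 12 listed (Epcam, Cldn4, Hoxb13, Pbsn and Tmprss2) were not above background on any array.

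Of the 39 measured genes, 6 rose and 0 fell at an adjusted p under 0.05 (limma), where 11% of all genes rose and 13.1% fell. At an unadjusted p under 0.05, 12 were higher and 0 lower, against 17.6% and 19.9% of all genes. The genes that rose were the cathepsins Ctsf, Ctsa, Ctsl and Ctsh, the sialidase Neu1 and the lysosomal alpha-mannosidase Man2b1. The median difference of the 39 genes was 0.30 on the log2 scale, against -0.01 over all genes tested, and 31 of 39 differences were above 0, against 48.8% of all genes. The groups did not overlap, with every RAPPD array above every vehicle array, for 14 of the 39 (15.8% of all genes), and with every RAPPD array below for 1 of the 39, Gusb (18.8% of all genes).

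The counts changed with the arrays included, vehicle or RAPPD, and with the way chip entered the fit. When chip was entered as a fixed block, so that vehicle 3 alone is set against the 4 RAPPD tumours of its chip, 0 of the 39 genes were called (limma, 3.42% of all genes higher and 5.94% lower). At an unadjusted p under 0.05, 3 were then higher and 2 lower, against 12.7% and 16.2% of all genes, and the median difference was 0.15. With chip as a random block 4 of the 39 genes were called higher, against 8.55% of all genes. Vehicle 3 was above both other vehicle arrays for 23 of the 39 genes (37.5% of all genes) and below both for 4 (36.8% of all genes). It was at or above the lowest RAPPD array for 23 of the 39 (68.8% of all genes). Without vehicle 3, 10 genes were called higher, the additions being Ctsb, Arsa, Psap, Npc2, Grn and Atp6v1a, while Ctsh and Ctsl were lost. Without vehicle 1, without vehicle 2 or without RAPPD 2, the count was 3 or 4, as Ctsh, Ctsl and Man2b1 were not called. Without RAPPD 3 or RAPPD 4 it was 4, as Ctsh and Ctsl were not called. The number called higher over all genes also changed as arrays were left out, in a range given at the end. These member counts are therefore not read as particular to lysosomal genes.

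**Figure D1:**
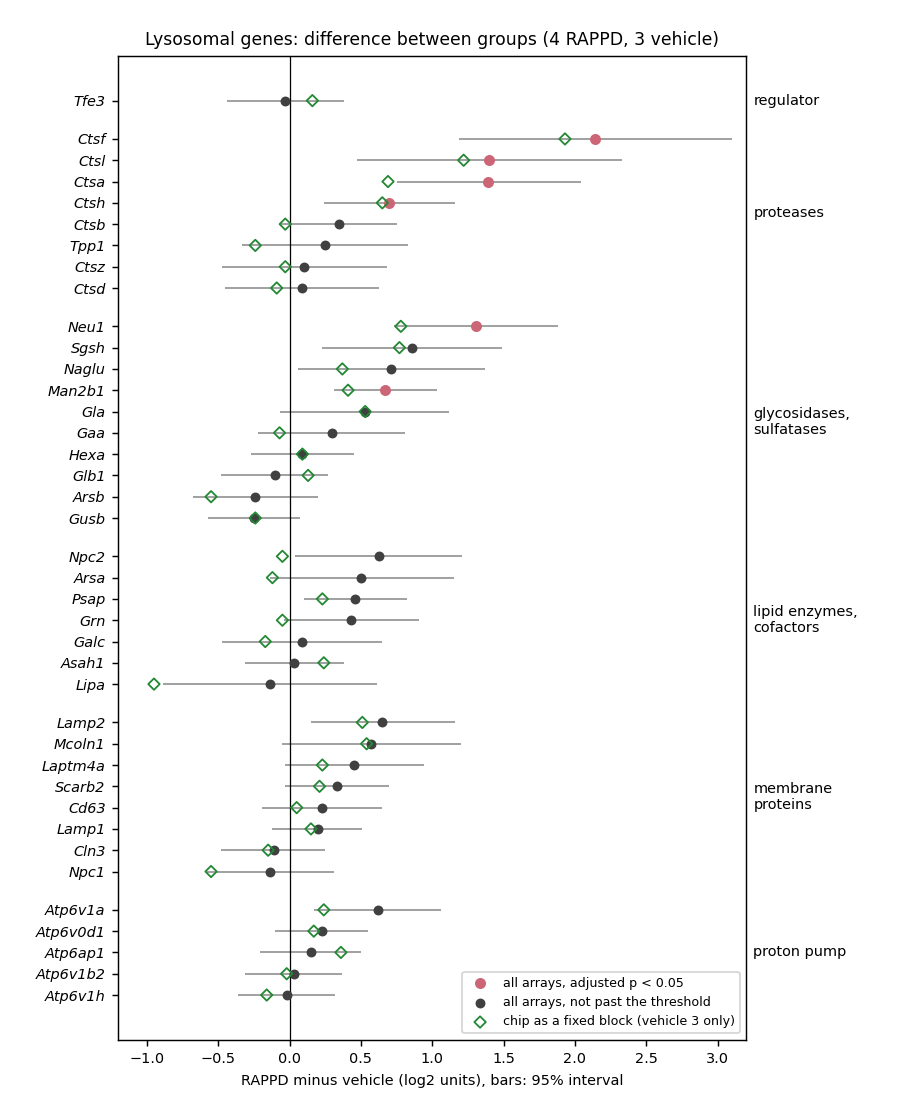
Difference between RAPPD and vehicle tumours (x axis, log2 units) for the 39 measured lysosomal genes, by class. Filled points with 95% intervals are from all 7 arrays, red where the adjusted p is under 0.05, and open diamonds are the values with chip as a fixed block. The 6 red points are 4 proteases, Neu1 and Man2b1, and the diamonds of most lipid enzymes and cofactors lie at or below 0.

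Of the 8 proteases, 4 rose and 0 fell, against 11% and 13.1% of all genes, and the median difference was 0.52. Within the shared chip the median was 0.31, with 4 of the 8 below 0. Ctsf, the papain-like cysteine protease cathepsin F, stood at 6.21, 6.44 and 6.65 in the vehicle tumours and at 7.39, 8.65, 9.49 and 8.78 in the RAPPD tumours. The groups did not overlap, and RAPPD 1 was the lowest of its group. Ctsf rose by 2.14 ± 0.42 (SE, n = 4 and 3), a 4.42-fold difference (adjusted p = 0.0075). With the authors' processed values the difference was 0.83 (adjusted p = 0.0413). Within the shared chip its difference was 1.93 ± 0.71 (adjusted p = 0.142).

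Ctsa, cathepsin A, is a carboxypeptidase that also protects the sialidase Neu1 and the beta-galactosidase Glb1 in a multienzyme complex. Its levels were 10.27, 10.34 and 11.37 in the vehicle tumours and 12.19, 12.04, 12.28 and 11.71 in the RAPPD tumours. Vehicle 3 stood apart from the other vehicle arrays but below every RAPPD array. Ctsa rose by 1.39 ± 0.28, or 2.63-fold (adjusted p = 0.00877), and by 0.69 ± 0.26 within the shared chip (adjusted p = 0.153). Its other 4 probes lay between 0.26 and 1.28. Of the 5 genes that rose and have a promoter window, Ctsa is the single holder of the CLEAR core, in 2 copies.

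Ctsl, the broadly acting cysteine protease cathepsin L, was at 5.83, 6.82 and 6.59 in vehicle and at 6.97, 7.42, 8.58 and 8.31 in RAPPD tumours. The gap between the highest vehicle and the lowest RAPPD array was small. The rise was 1.40 ± 0.41, or 2.64-fold (adjusted p = 0.0372), but 0.45 with the authors' processed values (adjusted p = 0.0882). Ctsh, an aminopeptidase of the same family, was at 11.45, 11.70 and 11.65 in vehicle and at 12.00, 12.08, 12.70 and 12.43 in RAPPD tumours. It rose by 0.70 ± 0.20, or 1.62-fold (adjusted p = 0.0365), and its other probe gave 0.77. The 3 vehicle arrays were close together for Ctsh, and its difference within the shared chip was 0.65 ± 0.31 (adjusted p = 0.231), against 1.22 ± 0.62 for Ctsl (adjusted p = 0.25).

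**Figure D2:**
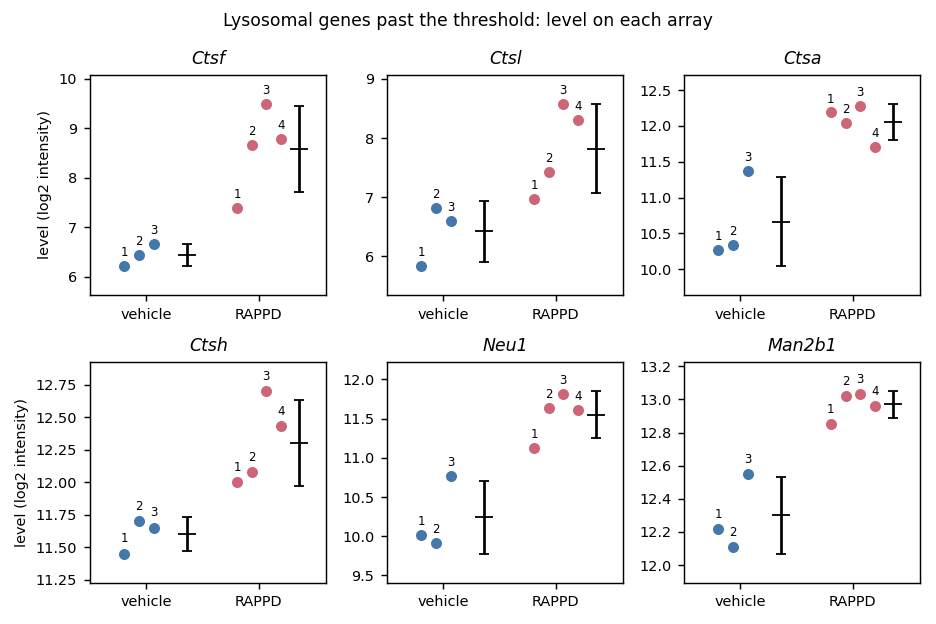
Level on each array (y axis, log2 intensity) of the 6 lysosomal genes past the threshold, with replicate numbers beside the points and the mean ± SD of each group in black. No group overlaps the other, and vehicle 3 is the highest vehicle array for Ctsf, Ctsa, Neu1 and Man2b1.

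The other 4 proteases did not pass the test. Ctsb, cathepsin B, was at 12.60, 12.53 and 13.13 in vehicle and at 13.12, 13.07, 13.06 and 13.15 in RAPPD tumours. Vehicle 3 thus lay within the RAPPD range, and the difference was 0.35 ± 0.18 (95% interval -0.06 to 0.75). Ctsd, the aspartic protease cathepsin D, was read by 1 probe, whose values were 5.10, 5.56 and 5.61 in vehicle and 5.48, 5.41, 5.14 and 6.04 in RAPPD tumours. These values lie close to the lowest detected signal on the arrays (4.92 to 5.01), so the level of this gene was barely measured. The interval of its difference was -0.45 to 0.63. Tpp1, the tripeptidyl peptidase lost in a form of Batten disease, and Ctsz, a carboxypeptidase, differed by 0.25 ± 0.26 and 0.10 ± 0.25.

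Of the 10 glycosidases and sulfatases, 2 rose and 0 fell, against 11% and 13.1% of all genes. The median difference was 0.41. Neu1, which removes terminal sialic acids, was at 10.02, 9.92 and 10.77 in vehicle and at 11.12, 11.64, 11.81 and 11.61 in RAPPD tumours. It rose by 1.31 ± 0.25, or 2.48-fold (adjusted p = 0.0069). As for its partner Ctsa, vehicle 3 lay between the other vehicle arrays and the RAPPD arrays, and the difference within the shared chip was 0.78 ± 0.29 (adjusted p = 0.147). Glb1, the third enzyme of that complex, was at 10.71, 10.60 and 10.31 in vehicle and at 10.25, 10.61, 10.38 and 10.51 in RAPPD tumours. Its groups overlapped, and its difference was -0.10 ± 0.17 (95% interval -0.48 to 0.27). A dimmer probe of Glb1 lay lower on every RAPPD array, at -0.54 ± 0.20 (adjusted p = 0.0785 among all probes).

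Man2b1, which trims mannose from N-glycans, was at 12.22, 12.11 and 12.55 in vehicle and at 12.85, 13.02, 13.03 and 12.96 in RAPPD tumours. The RAPPD arrays were close together, and the rise was 0.67 ± 0.16, or 1.59-fold (adjusted p = 0.017). Within the shared chip it was 0.41 ± 0.19 (adjusted p = 0.205). A further probe of Man2b1 gave 0.69, with vehicle 3 inside the RAPPD range.

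Sgsh and Naglu, which act on heparan sulfate, were higher on every RAPPD array than on any vehicle array without passing the test. Gusb, which also acts on heparan sulfate, was lower on every RAPPD array by the probe used. Sgsh, the sulfamidase, was at 4.73, 5.73 and 5.36 in vehicle, where it was detected on 2 of 3 arrays, and at 5.93, 6.43, 6.43 and 5.74 in RAPPD tumours (0.86 ± 0.28, adjusted p = 0.0524). Naglu, the N-acetylglucosaminidase, ranged from 7.04 to 7.93 in vehicle and from 7.97 to 8.87 in RAPPD tumours (0.71 ± 0.29, adjusted p = 0.107). The remaining enzymes were Gla at 0.53 ± 0.26, Gaa (glycogen breakdown) at 0.30 ± 0.23, Hexa at 0.09 ± 0.16, Arsb at -0.24 ± 0.19 and Gusb at -0.25 ± 0.14. Gla, whose promoter holds 2 copies of the core, was lowest in RAPPD 1 (5.69) and at 6.53 to 6.82 on the other RAPPD arrays, against 5.82 to 5.96 in vehicle. Gusb, the beta-glucuronidase, stood at 11.93 to 12.09 in vehicle and just below, at 11.67 to 11.91, in RAPPD tumours. Its other 2 probes past the filter went the other way, at 0.08 and 0.20, with overlapping groups.

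**Figure D3:**
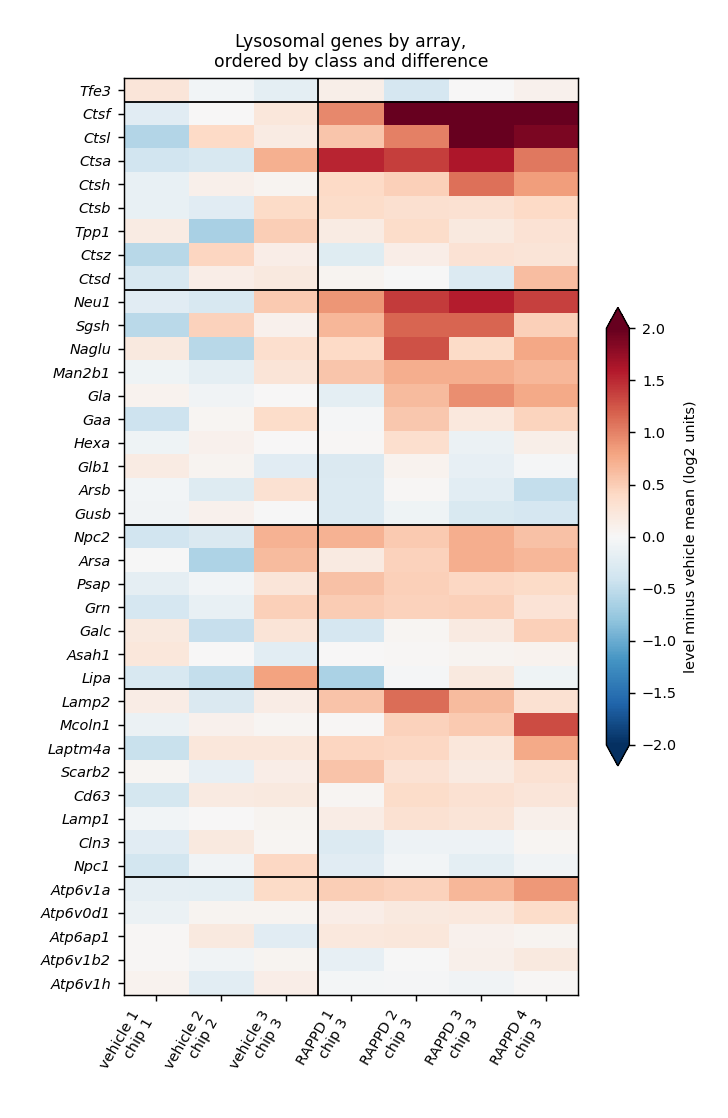
Level of each measured lysosomal gene on each array minus its vehicle mean (colour, log2 units, ends of the scale at -2 and 2), with genes in rows by class and arrays in columns with their chip. Ctsf, Ctsl, Ctsa and Neu1 are the reddest rows in RAPPD tumours, and vehicle 3 is red for Ctsa, Neu1, Npc2, Arsa, Grn and Lipa.

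None of the 7 lipid enzymes and soluble cofactors passed the test (limma), and the median difference was 0.43. At an unadjusted p under 0.05, 2 were higher and 0 lower, against 17.6% and 19.9% of all genes. Psap, the precursor of the saposins that present sphingolipids to their hydrolases, came closest. It was at 14.36, 14.49 and 14.78 in vehicle and at 15.13, 15.02, 14.96 and 14.92 in RAPPD tumours, a difference of 0.46 ± 0.16 (adjusted p = 0.0642). Its other probe, tested on its own among all probes, differed by 0.77 ± 0.22 (adjusted p = 0.0357).

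For Npc2, Grn and Arsa vehicle 3 stood with the RAPPD tumours, and for Lipa it stood above them. Npc2, which hands cholesterol to Npc1, was at 8.57 and 8.66 in vehicle 1 and 2, at 9.64 in vehicle 3 and at 9.48 to 9.68 in RAPPD tumours. Grn, the progranulin gene, was at 12.74, 12.92 and 13.55 in vehicle and at 13.35 to 13.57 in RAPPD tumours, and Arsa, the sulfatide sulfatase, was at 10, 9.40 and 10.64 against 10.19 to 10.73. Lipa, the acid lipase that frees cholesterol from its esters, was at 9.33 and 9.17 in vehicle 1 and 2 and at 10.46 in vehicle 3, above all RAPPD tumours (9.02 to 9.85). Their differences from all arrays were 0.63 ± 0.26 for Npc2, 0.43 ± 0.21 for Grn, 0.50 ± 0.28 for Arsa and -0.14 ± 0.33 for Lipa. Within the shared chip the same differences were -0.05, -0.05, -0.12 and -0.95, and the median of the class turned from 0.43 to -0.05. Asah1, the acid ceramidase, differed by 0.03 ± 0.15 and Galc, the galactosylceramidase, by 0.09 ± 0.25. A dimmer probe of Asah1 gave 0.50 ± 0.15 (adjusted p = 0.0433 among all probes).

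None of the 8 membrane proteins passed the test by the probe used (limma), with a median difference of 0.28. At an unadjusted p under 0.05, 1 was higher and 0 lower, against 17.6% and 19.9% of all genes. Lamp1 was at 13.54, 13.60 and 13.65 in vehicle and at 13.75, 13.90, 13.85 and 13.70 in RAPPD tumours. The groups did not overlap, yet the difference was 0.20 ± 0.14 (95% interval -0.12 to 0.51). Mcoln1, the calcium channel TRPML1 whose opening activates the phosphatase that acts on TFEB, was at 6.53, 6.72 and 6.68 in vehicle and at 6.66, 7.10, 7.17 and 7.94 in RAPPD tumours. RAPPD 1 lay within the vehicle range and RAPPD 4 was the highest, and the difference was 0.57 ± 0.28 (95% interval -0.05 to 1.20). Laptm4a differed by 0.45 ± 0.21, Scarb2 (the receptor that carries glucocerebrosidase to lysosomes) by 0.33 ± 0.16 with groups apart, the tetraspanin Cd63 by 0.23 ± 0.18, Cln3 by -0.11 ± 0.16 and the cholesterol exporter Npc1 by -0.14 ± 0.20.

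Lamp2, the partner of Lamp1 and the receptor of chaperone-mediated autophagy in its A form, was read by 7 probes, whose differences ranged from 0.09 to 1.61. The brightest probe, used above, was at 12.98, 12.54 and 12.98 in vehicle and at 13.40, 13.95, 13.47 and 13.14 in RAPPD tumours (0.65 ± 0.22, adjusted p = 0.0624). A probe listed under another RefSeq transcript of the gene was at 11.04, 11.20 and 11.21 in vehicle and at 12.49, 12.27, 12.44 and 12.23 in RAPPD tumours. This probe rose by 1.21 ± 0.16 (adjusted p = 0.000969 among all 21249 probes), a 2.31-fold difference.

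A further bright probe of that transcript rose by 0.98 ± 0.16 (adjusted p = 0.0032). A dim one was above background on the 4 RAPPD arrays and on no vehicle array, so it entered the test only through the RAPPD tumours. A probe listed under a cDNA record was at 6.89, 7.06 and 7.04 in vehicle and at 8.72, 8.56, 8.55 and 8.61 in RAPPD tumours. It rose by 1.61 ± 0.15, or 3.05-fold (adjusted p = 0.000159), and its vehicle and RAPPD arrays formed tight, separate groups. The other probe under a cDNA record differed by 0.09 ± 0.22 (adjusted p = 0.803). Vehicle 3 did not stand apart for the probes that rose. Within the shared chip the differences of the 2 bright probes and the cDNA probe were 1.15, 1.06 and 1.56 (adjusted p = 0.0306, 0.0364 and 0.0111).

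Both probes of the first transcript gave 0.65 and 0.58 (adjusted p = 0.0655 for each among all probes). Within each array, the mean of the 2 bright probes of the second transcript minus the mean of the first transcript's probes was -1.0 ± 0.31 (SD, n = 3) in vehicle and -0.52 ± 0.34 (n = 4) in RAPPD tumours, and the groups overlapped. For the brighter cDNA probe the same quantity was -5.17 ± 0.26 and -4.18 ± 0.33, and the groups were apart. An exact permutation test over the arrays gave p = 0.114 for the second transcript. For the cDNA probe it gave 0.0571, the smallest value possible with these arrays. The probes of Lamp2 were singled out after their values were seen, so these differences are a description and the p-values are not read as support. Counting a gene when any of its probes passed, 9 of the 39 genes rose (13.2% of all genes), with Asah1, Psap and Lamp2 added to the 6 above, and 0 fell (14.5% of all genes).

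**Figure D4:**
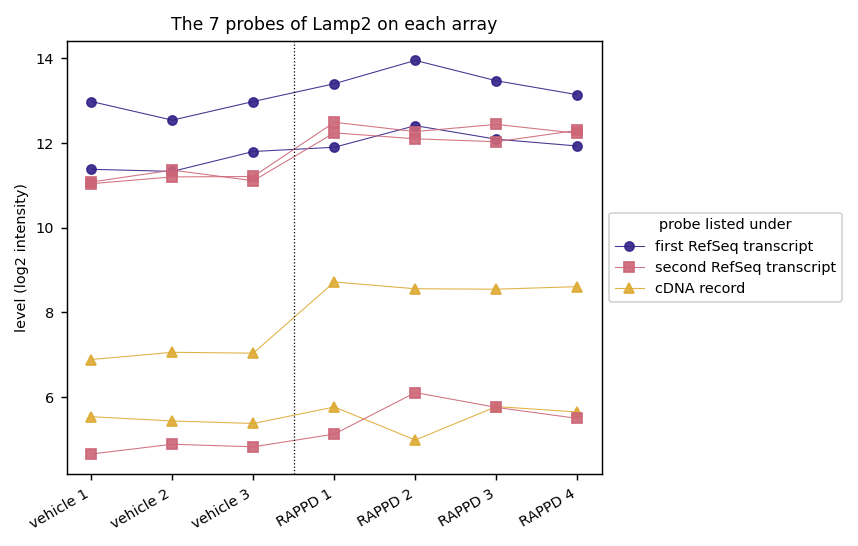
Level (y axis, log2 intensity) of each of the 7 probes of Lamp2 on each array (x axis), coloured by the transcript the annotation lists, where lines join the values of 1 probe. The 2 bright probes of the second transcript and the brighter cDNA probe sit higher on all 4 RAPPD arrays than on the 3 vehicle arrays by 0.98 to 1.61 on average.

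None of the 5 proton pump genes passed the test (limma), and the median difference was 0.15. At an unadjusted p under 0.05, 1 was higher and 0 lower, against 17.6% and 19.9% of all genes. Atp6v1a, the catalytic A subunit of the cytosolic V1 sector, was at 7.34, 7.32 and 7.90 in vehicle and at 8.01, 7.98, 8.19 and 8.38 in RAPPD tumours. The groups were apart by a narrow margin set by vehicle 3, and the difference was 0.62 ± 0.20 (adjusted p = 0.0504). The membrane sector subunit Atp6v0d1 was apart too, at 11.94 to 12.12 against 12.20 to 12.42 (0.23 ± 0.14). Its other 3 probes lay higher, at 0.44 to 0.53 (adjusted p = 0.0674 to 0.123 among all probes). The accessory subunit Atp6ap1 differed by 0.15 ± 0.16, and the V1 subunits Atp6v1b2 and Atp6v1h by 0.03 ± 0.15 and -0.02 ± 0.15. A dim probe of Atp6v1h, detected on 4 arrays, gave 0.52 ± 0.22 (adjusted p = 0.126 among all probes). The interval for Atp6v1b2 was -0.31 to 0.37, so a shift of the size seen for Atp6v1a lies outside it for the probe of Atp6v1b2.

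The transcription factors themselves showed no difference that the arrays could resolve. Tfe3 was at 8.25, 7.96 and 7.82 in vehicle and at 8.13, 7.68, 8.01 and 8.10 in RAPPD tumours, with overlapping groups and a difference of -0.03 ± 0.18 (95% interval -0.44 to 0.38). Tfeb was read by 2 probes, the brighter detected on 1 vehicle and 1 RAPPD array, so its level was not measured. That probe was at 4.96, 5.87 and 4.96 in vehicle and at 4.78, 5.25, 4.34 and 4.69 in RAPPD tumours, around the detection floor. TFEB and TFE3 are controlled largely by phosphorylation and location in the cell, which arrays do not read.

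Members with and without the CLEAR core did not fall into separate ranges. The 7 with the core differed by -0.11 to 1.39 with a median of 0.53, and 1 of them rose. The 8 with only the shorter E-box differed by -0.10 to 2.14 with a median of 0.60, and 2 rose, Ctsf and Ctsl. The 18 with neither differed by -0.25 to 1.31 with a median of 0.24, and 2 rose, Neu1 and Man2b1. Ctsh was among the genes without a window. These values are a description, and no test was made of them.

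Genes upstream of TFEB on the lysosomal surface were also looked at, from a list of MiT factors, Rag GTPases, Ragulator, folliculin partners and mTORC1 subunits. Of 11 measured, 5 passed the test upward and 0 downward, against 11% and 13.1% of all genes, and the median difference was 0.32. All 5 also passed with chip as a random block, against 8.55% of all genes. Rragd, 1 of the 5, entered the test only through RAPPD arrays, so its call is not read as support. At an unadjusted p under 0.05 the counts were the same, against 17.6% and 19.9% of all genes. Lamtor1, the Ragulator subunit that anchors the Rag GTPases to the membrane, was at 10.16, 9.95 and 10.23 in vehicle and at 11.03, 10.90, 10.99 and 10.90 in RAPPD tumours. It rose by 0.84 ± 0.14, or 1.79-fold (adjusted p = 0.00426), with 0.72 within the shared chip (adjusted p = 0.0624).

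Fnip2, a partner of folliculin, rose by 1.46 ± 0.28 (adjusted p = 0.00661), and the kinase gene Mtor by 0.87 ± 0.20 (adjusted p = 0.0159). Mtor kept its call within the shared chip, at 1.22 (adjusted p = 0.0378), while the calls of Lamtor1, Fnip2 and Rragc were lost there. Rragc, a Rag GTPase, rose by 0.63 ± 0.20 (adjusted p = 0.0475). Rragd, a Rag GTPase known as a target of the MiT factors, was above background on 0 of 3 vehicle and 3 of 4 RAPPD arrays and was at least 1.22-fold higher in RAPPD tumours. Here the bound sets the RAPPD mean against the detection floor of the vehicle arrays, and the other probe of Rragd, below the filter, lay at -0.23. Flcn, folliculin, differed by 0.03 ± 0.16 and Rptor, the mTORC1 scaffold, by -0.24 ± 0.15.

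Other genes of the organelle gave a similar median. Of 68 other lysosomal genes listed, 56 were measured and the median difference was 0.29. Of the 56, 9 rose (16.1%) and 2 fell, where 11% of all genes rose and 13.1% fell. The 5 with the smallest p among those that rose were Tcirg1, Slc17a5, Atp6v1g1, Prcp and Ctss. Tcirg1, the V-ATPase a3 subunit of osteoclasts and macrophages, rose by 0.80 ± 0.19 (adjusted p = 0.017), and the V1 subunit Atp6v1g1 by 0.74 ± 0.19 (adjusted p = 0.0226). The sialic acid exporter Slc17a5 rose by 0.70 ± 0.18 (adjusted p = 0.0222), the carboxypeptidase Prcp by 0.81 ± 0.21 (adjusted p = 0.0233) and Ctss, the cathepsin of antigen-presenting cells, by 1.09 ± 0.29 (adjusted p = 0.0276).

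Both genes that fell are known mainly from particular cell types. Ctse, an endosomal aspartic protease of epithelia and immune cells, fell by 1.5 ± 0.23 (adjusted p = 0.00248), although its other probes lay at 0.11 to 1.92. Atp6v1g2, a V1 subunit of neurons, fell by 1.11 ± 0.27 (adjusted p = 0.0193), with another probe at -0.10. Within the shared chip the median difference of the 56 genes was 0.17, and Slc17a5, Atp6v1g1 and Ctse differed by 0.90, 1.01 and -1.70. The count of other lysosomal genes that rose was 0 without vehicle 1, 1 without RAPPD 2 or without RAPPD 4, and 3 without vehicle 2 or without RAPPD 3. The number called higher over all genes changed as arrays were left out too.

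Cell types rich in lysosomes were measured beside these genes, since in bulk tumour RNA more cells of a type and more RNA per cell cannot be told apart. The 16 measured macrophage markers of 18 listed averaged 9.16, 9.44 and 9.75 in vehicle and 9.39, 9.04, 9.41 and 9.40 in RAPPD tumours, with vehicle 3 highest. Of them 3 rose and 4 fell, against 11% and 13.1% of all genes, and the median difference was 0.07. The endotoxin co-receptor Cd14 rose by 1.88 ± 0.29, the efferocytosis receptor Mertk by 0.96 ± 0.24 and the transcription factor Maf by 0.86 ± 0.25. The resident macrophage genes Siglec1, Mrc1 and Folr2 fell by 2.07 ± 0.26, 1.22 ± 0.30 and 0.99 ± 0.21, and Aif1 fell by 1.19 ± 0.25. The complement gene C1qa differed by 0.08 ± 0.24.

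Neutrophil markers moved with the groups. The 14 measured of 17 listed averaged 6.68, 6.42 and 8.04 in vehicle and 8.87, 10.20, 10.64 and 10.60 in RAPPD tumours, so that vehicle 3 and RAPPD 1 were nearest to each other. Of these 11 rose and 0 fell, against 11% and 13.1% of all genes. Ngp was above background on RAPPD arrays only, the granule gene Mpo did not pass the filter and Ltf was not above background on any array. Fibroblast markers (12 of 12 measured) averaged 9.08, 9.26 and 10.07 in vehicle and 9.88, 10.45, 11.17 and 10.41 in RAPPD tumours. Among these 4 rose and 1 fell, against 11% and 13.1% of all genes. Luminal markers (5 of 12 measured) averaged 9.71, 9.43 and 8.37 in vehicle and 8.63, 7.8, 7.23 and 7.83 in RAPPD tumours. Among the luminal markers 0 rose and 2 fell, against 11% and 13.1% of all genes. The 2 were Krt8 and Krt18, with differences of -2.16 ± 0.29 and -2.83 ± 0.48. Krt19, Cdh1 and Psca were not called, at -1.81 ± 1.21, 0.05 ± 0.32 and 0.24 ± 0.18. Within the shared chip Krt8 and Krt18 differed by -2.03 and -1.89, but Krt19 by 1.22. The mean of the 39 lysosomal genes was 10.16, 10.22 and 10.51 in vehicle and 10.50, 10.73, 10.76 and 10.76 in RAPPD tumours, again with vehicle 3 and RAPPD 1 side by side. All 5 measured red blood cell markers rose, against 11% of all genes. Their means were 10.64, 9.89 and 9.71 in vehicle and 11.77 to 13.53 in RAPPD tumours. The part of these cell types in the lysosomal differences was not tested.

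**Figure D5:**
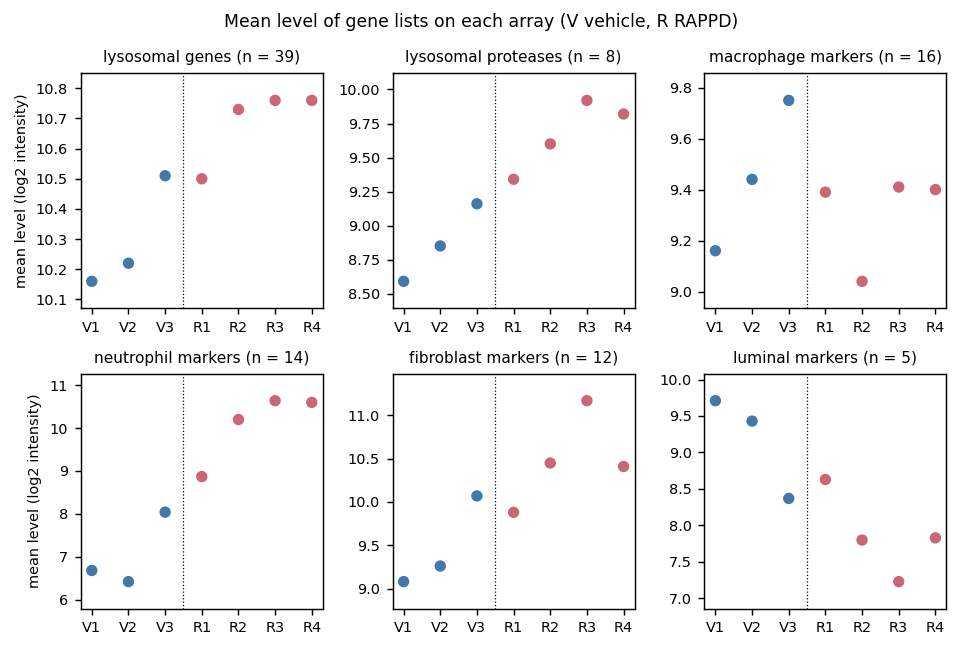
Mean level (y axis, log2 intensity) of the measured genes of 6 lists on each array, vehicle in blue and RAPPD in red. By these means vehicle 3 lies nearest to RAPPD 1 for the lysosomal genes and the fibroblast and luminal markers. It is the highest of all arrays for the macrophage markers. Single luminal markers differed between vehicle 3 and RAPPD 1 in opposite directions, with Krt8 at 14.01 and 12.78 and Krt19 at 7.98 and 11.50.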

How the data were processed

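RNA of 7 tumours was read on Illumina mouse bead arrays. The deposited table gave background-subtracted intensity values on a linear scale, and a further deposited table gave the authors' processed values, read here as log2-like with scale, centring and transform unstated (array medians 8.021 to 8.025), which served as an alternative. BeadStudio and lumi are named per the submitters' processing notes, without versions or roles. Array means lay close together, at 498.1 to 501.9, so the deposited intensities may already have been scaled between arrays, by a step not known here.

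Without detection p-values, neqc could not be run. Normexp with background mean 0 and SD from the negative intensities (8.41 to 9.35), offset 16, quantile normalisation and log2 followed. A gene was its brightest probe past the filter. Probes were named by the platform annotation (34776 with 1 symbol, 18 with several, 10334 unnamed here, 99.78% matched by Entrez identifier to RefSeq with 0 changed). limma 3.58.1 (R 4.3.3) compared the groups in 1 fit of all arrays, with p-values adjusted by Benjamini and Hochberg's method over 11085 genes and a threshold of 0.05. The fit was tested on simulated data with independent noise on each array and no chip effect, so that test does not bear on chip.

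All members are named, with values on every array for those past the threshold and for Tfeb, Tfe3, Mcoln1, Lamp1, Ctsd and Ctsb (Tfeb gave no level), and for others where they show the spread. Up to 5 genes a direction with the smallest p come from the other lists. Members and lists were chosen with earlier results of these data known. The probe-by-probe test was added after seeing the data. Replicates were numbered in series order.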

Additional observations from a re-analysis of the deposited data

How the results depend on the processing

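Of 18 alternatives planned for each gene, Ctsa, Ctsf and Neu1 kept their call under 17, Man2b1 under 13, Ctsh under 10 and Ctsl under 8, and all 6 stayed above 0 under all 18. Chip as a fixed block, which leaves 1 vehicle array, changed most: 379 genes were called higher and 659 lower, with 0 members, 2 other lysosomal genes higher and 1 lower. Medians were then 0.15 for the members, 0.31 for proteases, 0.25 for glycosidases and sulfatases, -0.05 for lipid enzymes, 0.18 for membrane proteins and 0.17 for other lysosomal genes. In that fit the sign turned for Tfe3 (0.16), Glb1 (0.13), Ctsb and Ctsz (-0.03 each), Ctsd (-0.09), Tpp1 (-0.24), Gaa (-0.07), Galc (-0.17), Arsa (-0.12), Npc2 and Grn (-0.05 each) and Atp6v1b2 (-0.02), none of which was called in that fit. With chip as a random block 4 other lysosomal genes were higher and Tfe3 was at 0.03. The submitters' processed values put Ctsf at 0.83, below Ctsa (1.31) and Neu1 (1.18), called 1 member lower, Gusb, and gave medians of 0.11 for glycosidases and sulfatases and 0.1 for other lysosomal genes. The mean of a gene's probes put the proton pump median at 0.25, called 1 other lysosomal gene lower and turned Gusb (0.01), Arsb (0.07), Galc (-0.1), Npc1 (0.11) and Atp6v1h (0.25), while median scaling and cyclic loess put Atp6v1h at 0.01. Leaving out each array in turn gave 755 to 1292 genes higher, 961 to 1558 lower, 3 to 10 members higher, and 0 to 9 other lysosomal genes higher and 1 to 2 lower. The medians ranged from 0.23 to 0.48 for the members, 0.2 to 0.58 for lipid enzymes and 0.05 to 0.25 for the proton pump. The differences ranged from -0.13 to 0.09 for Tfe3, -0.08 to 0.22 for Ctsd, -0.18 to 0.32 for Ctsz, -0.08 to 0.49 for Tpp1, -0.38 to 0.27 for Lipa, -0.07 to 0.14 for Asah1, -0.14 to 0.23 for Galc, -0.31 to 0.07 for Npc1, -0.03 to 0.09 for Atp6v1b2 and -0.13 to 0.05 for Atp6v1h. Fewer arrays enter these fits, and for the other settings the cause was not tested. Signal near background limits Tfeb, Ctsd and Sgsh. No paired analysis was possible because the labels number no replicates.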
